A study of Mus musculus with 36 samples.

Results

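The comparison set cultured mesenchymal stem cells (MSCs) of vertebral bone marrow (vBM-MSCs) against those of adipose tissue (A-MSCs) in the mouse. It used every RNA-seq library of these tissues with a deposited table, namely 2 of vBM-MSCs and 3 of A-MSCs. These are 5 of the 11 RNA-seq libraries of the series that have a table (12 by label), with 24411 genes listed per library. The other libraries, 3 of femoral bone marrow (fBM-MSCs) and 3 of lung (P-MSCs), were used to estimate the spread between replicates and as reference levels. All cells came from untreated C57BL6/J mice, 8 weeks old. Vertebrae were crushed to free the marrow, whereas adipose tissue was minced and digested with collagenase, so the tissue and the way of isolation cannot be told apart. Both kinds of cells then grew on collagen I in MesenCult medium with a ROCK inhibitor and were used within 3 passages. The 4 tissues came from the same 3 mice, without a statement of which libraries belong to one mouse, and the RNA of vBM-MSC replicate 3 is not analysed here. ATAC-seq of MSCs of the same tissues is given as 1 pooled list of open regions per tissue. By label the vBM-MSC list includes replicate 3, so it rests on more replicates than the RNA results.

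MSCs are stromal cells that adhere to plastic, can be expanded in culture and can be driven toward bone, cartilage and fat. In the marrow, stromal cells support blood stem cells and supply the osteoblasts that lay down bone matrix. In fat depots, stromal cells lie around vessels and supply adipocytes, and the surface of visceral fat is covered by mesothelium, a layer of flat cells that carries keratins and the factor Wt1. Vertebrae form from the sclerotome of the somites under the paired-box factors Pax1 and Pax9, and limb bones form from lateral plate mesoderm.

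The libraries held 30047590 and 35831719 expected counts in vBM-MSCs and 31767591, 39802027 and 37580463 in A-MSCs. Of 9 positive MSC surface markers all 9 passed the filter on low counts (a CPM, or count scaled to library size, of at least 1 in at least 2 libraries). Cd44, the hyaluronan receptor, stood at 719.6 and 591 TPM (a level scaled by transcript length and library size) in vBM-MSCs and at 405, 383 and 367 TPM in A-MSCs, a difference that missed the threshold (adjusted p = 0.128). Ly6a, which encodes Sca-1, stood at 805 and 571 TPM in vBM-MSCs against 145, 121 and 114 TPM in A-MSCs. It was higher in vBM-MSCs by 2.34 ± 0.25 on the log2 scale (SE derived from the F value of the test, here and below, adjusted p = 0.000103). Pdgfrb, Itgb1 and Eng were also higher in vBM-MSCs, and Pdgfra was higher in A-MSCs. The log2 difference of Eng was 0.85 and fell to 0.33, with the call lost, without vBM-MSC replicate 2. That of Pdgfra was -1.36 and was -0.91, with the call lost, without vBM-MSC replicate 1. Both calls were also lost without some A-MSC libraries, with values of 0.80 and 0.83 for Eng and -1.32 and -1.31 for Pdgfra. The negative marker Cd34, at 7.33 and 7.46 TPM against 0.91 to 1.18 TPM, was higher in vBM-MSCs, although not without A-MSC replicate 3, and its exons overlap Gm16897. Erythroid markers were at or near 0: of 8 erythroid markers 5 were listed at 0 in all 5 libraries and all 8 stayed below 1 TPM.

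Some markers of other cell types were unequal between the tissues. The 8 endothelial markers summed to 0.01 and 1.19 TPM in vBM-MSCs and to between 3.53 and 55.54 TPM in A-MSCs. The high end was A-MSC replicate 1, where Emcn, an endothelial sialomucin, reached 49.5 TPM against 5.51 and 2.32 TPM in replicates 2 and 3 and 0 and 0.21 TPM in vBM-MSCs. Emcn passed the test (adjusted p = 0.0275) but not without A-MSC replicate 1, nor without either vBM-MSC library. Cdh5 (VE-cadherin), the other endothelial marker called of 4 tested, stood at 0.81, 1.05 and 0.13 TPM in A-MSCs and at 0 in vBM-MSCs (adjusted p = 0.00611). It kept its call without either vBM-MSC library or A-MSC replicate 3, and was not tested without A-MSC replicate 1 or 2. The 12 macrophage markers summed to between 24.42 and 45.1 TPM in vBM-MSCs and between 17.88 and 27.11 TPM in A-MSCs. Lyz2 (lysozyme) made up most of the former, at 19.8 and 38.6 TPM, and was higher there than in A-MSCs unless vBM-MSC replicate 2 was left out, while Csf1r, the receptor for macrophage colony-stimulating factor, was at 1.16 and 0.61 TPM in vBM-MSCs and 6.56, 5.69 and 5.46 TPM in A-MSCs. Cd68, a lysosomal protein of macrophages, was also higher in A-MSCs, at 5.56, 5.97 and 3.47 TPM against 0.87 and 2.72 TPM (adjusted p = 0.0211), except without vBM-MSC replicate 1 or A-MSC replicate 1 or 2. Of 4 macrophage markers tested, 1 was thus higher in vBM-MSCs and 2 in A-MSCs. Of the other macrophage markers, Fcgr1, Mrc1 and Aif1 were at 0 in all 5 libraries. Adipoq, the adipocyte hormone adiponectin (added after its values were seen), was at 0 and 3.87 TPM in vBM-MSCs and at 2.69, 0 and 14.6 TPM in A-MSCs. In bulk RNA, fewer cells of a type and less RNA per cell cannot be told apart, and the part of these cells in the results that follow was not tested.

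Of 12509 genes tested, 3201 differed between vBM-MSCs and A-MSCs (edgeR quasi-likelihood test, Benjamini-Hochberg adjusted p under 0.05), which is 25.6% of them. Of these, 1650 were higher in vBM-MSCs (13.2% of the genes tested) and 1551 in A-MSCs (12.4%), and 1036 differed by 3-fold or more. The shares of 13.2% and 12.4% are the background for the counts of every gene list here. The count of 3201 fell to 1931 with the replicate number as a block over the 5 libraries. With limma on log2(TPM + 1), 566 genes instead of 1036 were called at 3-fold or more. The TPM ranges of the tissues did not overlap for 3133 of the called genes, against 50.9% of all genes tested. The median log2 difference of all genes was 0.03. The p-values measure the spread between libraries, and the 2 vBM-MSC libraries were further apart than the A-MSC libraries. Between the vBM-MSC libraries 733 genes lay over 2-fold apart on log2(TPM + 1), and only 139 of these were higher in replicate 1. Between any pair of A-MSC libraries the number was at most 221. Of the 1650 genes higher in vBM-MSCs, 1145 had their higher vBM-MSC value in replicate 2, as did 1014 of the 1551 genes higher in A-MSCs.

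**Figure D1:**
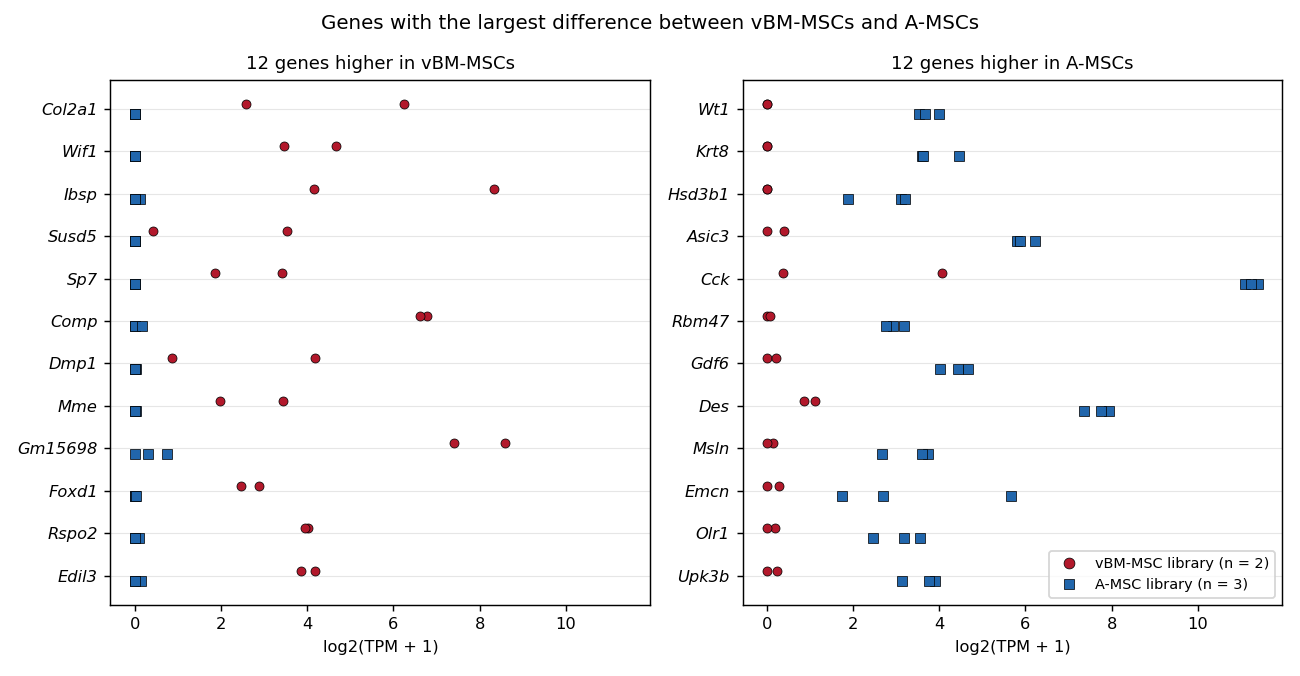
The 12 genes with the largest difference in each direction, by the rule in the account of the processing. Each point is 1 library on log2(TPM + 1), circles for the 2 vBM-MSC libraries and squares for the 3 A-MSC libraries. The tissues do not overlap for any of the 24 genes because the rule took only such genes. Ibsp, Col2a1, Cck, Dmp1 and Susd5 show the widest gaps between the vBM-MSC libraries.

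Some factors of the axial skeleton, Pax1 and Pax9 among them, were found in vBM-MSCs and hardly in A-MSCs. Pax1, the sclerotome factor, stood at 17.9 and 13.8 TPM in vBM-MSCs and at 0, 0.12 and 0 TPM in A-MSCs, so the tissues did not overlap. Its log2 difference was 8.35 ± 1.06 (SE), with an adjusted p of 0.000296. The femoral cells held 1.10 ± 1.20 TPM (SD, n = 3), and Pax1 was also higher in vBM-MSCs than in fBM-MSCs (log2 difference 3.83, adjusted p = 0.0116, in a comparison that used the same vBM-MSC libraries and called 12.8% of the genes tested). Pax9, its relative, stood at 1.51 and 2.78 TPM against 0.02, 0 and 0.07 TPM (log2 difference 5.99 ± 1.15, adjusted p = 0.00333). Its exons overlap Slc25a21, and reads of overlapping genes cannot be told apart in libraries without strand.

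In all, 4 of the 10 axial skeleton factors tested were higher in vBM-MSCs and 0 in A-MSCs, with a list median of 3.24 on the log2 scale. The list summed to 61.9 and 64.5 TPM in vBM-MSCs and to between 23.1 and 24.7 TPM in A-MSCs, where most of it was Foxc2 (added after its values were seen), which was not called, at 28.04 and 27.5 TPM against 16.9 to 19.1 TPM. The other called members, outside the rule for named genes and added after their values were seen, were Foxc1, at 2.93 and 3.61 TPM against 0.09 to 0.28 TPM, and Zic4, at 0.52 and 1.03 TPM against 0 in A-MSCs. Leaving out either vBM-MSC library lowered the count from 4 to 2. Foxd1, a forkhead factor of embryonic stroma and one of the 12 leading genes, stood at 6.30 and 4.48 TPM in vBM-MSCs and at 0, 0 and 0.02 TPM in A-MSCs (log2 difference 9.26 ± 1.16, adjusted p = 0.000271). With 1 count in all over the A-MSC libraries, the size of this difference is only roughly set. The level of Foxd1 in fBM-MSCs was 0.820 ± 0.240 TPM (SD, n = 3).

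The Hox genes, which carry positional identity along the body, gave few calls, and which way they went changed with the fit. Of 26 tested, 0 were higher in vBM-MSCs and 1 in A-MSCs, and the list median was 0.06. The first count was 3 when the 5 libraries of these tissues were fitted alone, 2 with limma, and 2 with the replicate block over the 5 libraries, which left 0 higher in A-MSCs. The called gene was Hoxc13 (named after its value was seen), at 0.49 and 1.23 TPM in vBM-MSCs and 3.12, 2.35 and 4.09 TPM in A-MSCs (log2 difference -2.02 ± 0.47, adjusted p = 0.0128). Without a vBM-MSC library the count of Hox genes higher in A-MSCs was 0 (without replicate 1) or 3 (without replicate 2).

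Cartilage genes stood higher in vBM-MSCs. Col2a1 encodes the main collagen of cartilage and lies at chr15:97975602-98004724 (mm10) on the minus strand. It stood at 4.92 and 75.1 TPM in the vBM-MSC libraries and at 0 in all 3 A-MSC libraries. Against a floor of 3 counts over the A-MSC libraries this was at least 5156-fold higher (adjusted p = 0.0134), but without vBM-MSC replicate 2 the bound was 581-fold and the call was lost. Comp, the cartilage oligomeric matrix protein, was even between the vBM-MSC libraries at 109 and 97.5 TPM, against 0, 0 and 0.12 TPM in A-MSCs (log2 difference 11.06 ± 1.47, adjusted p = 0.000387). With 7 counts in all over the A-MSC libraries, the size of this difference is only roughly set. Col10a1, the collagen of hypertrophic cartilage, stood at 4.51 and 13.8 TPM against at most 0.05 TPM, and Col11a1, which copolymerizes with type II collagen, at 6.96 and 10.52 TPM against 0.90 to 1.51 TPM. Of 11 cartilage genes tested, 7 were higher in vBM-MSCs and 0 in A-MSCs, with a list median of 3.94 (5 higher without vBM-MSC replicate 2). Sox9, the factor that directs chondrocyte fate, was at 11.6 and 12.3 TPM in vBM-MSCs and 8.12, 9.49 and 10.8 TPM in A-MSCs, a log2 difference of 0.22 ± 0.25 (adjusted p = 0.566).

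Genes of osteoblasts and bone matrix were also higher in vBM-MSCs, with wide gaps between the libraries. Sp7 (osterix), the factor that commits cells to the osteoblast fate, stood at 2.62 and 9.71 TPM in vBM-MSCs and at 0 in all A-MSC libraries, at least 328-fold higher against the floor (adjusted p = 0.000983), or 132-fold without vBM-MSC replicate 2. Ibsp, the bone sialoprotein that nucleates mineral, stood at 16.9 and 321 TPM against 0.08, 0 and 0 TPM (log2 difference 12.44 ± 1.56, adjusted p = 0.000272). The A-MSC libraries held 3 counts of it in all, so the size of this difference is only roughly set. Dmp1, a matrix protein of osteocytes, stood at 0.80 and 17.2 TPM against 0.02, 0 and 0 TPM (adjusted p = 0.0017). Alpl, the alkaline phosphatase that frees phosphate for mineral, stood at 11.6 and 76.9 TPM against 0, 0.54 and 0.42 TPM (adjusted p = 0.00308). For each of these genes replicate 2 was the high vBM-MSC library, and neither library overlapped the A-MSCs.

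Of 27 bone genes tested, 16 were higher in vBM-MSCs and 0 in A-MSCs, with a list median of 2.95 on the log2 scale, and 15 of the 16 were higher in vBM-MSC replicate 2 than in replicate 1. The count was 15 without replicate 1 and 9 without replicate 2. The femoral cells held more of several of them, with 505 ± 439 TPM of Ibsp, 98.7 ± 59.4 TPM of Dmp1 and 32.7 ± 28.2 TPM of Sp7 (SD, n = 3). Of these, Dmp1 passed the test against fBM-MSCs (log2 difference -3.56, adjusted p = 0.0315). Runx2, which acts above Sp7, overlapped between the tissues, at 2.55 and 4.54 TPM in vBM-MSCs and 2.40, 4.23 and 3.04 TPM in A-MSCs, with a log2 difference of -0.03 ± 0.34 (adjusted p = 0.961). Col1a1, the main collagen of bone but also of most connective tissue, stood at 725 and 957 TPM against 539, 718 and 775 TPM (adjusted p = 0.737). Among osteoclast markers, Ctsk (cathepsin K) was higher in vBM-MSCs, at 139.7 and 252 TPM against 59.2 to 69.3 TPM, whereas Dcstamp and Calcr were at 0 in all 5 libraries and Acp5 did not pass the test.

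**Figure D2:**
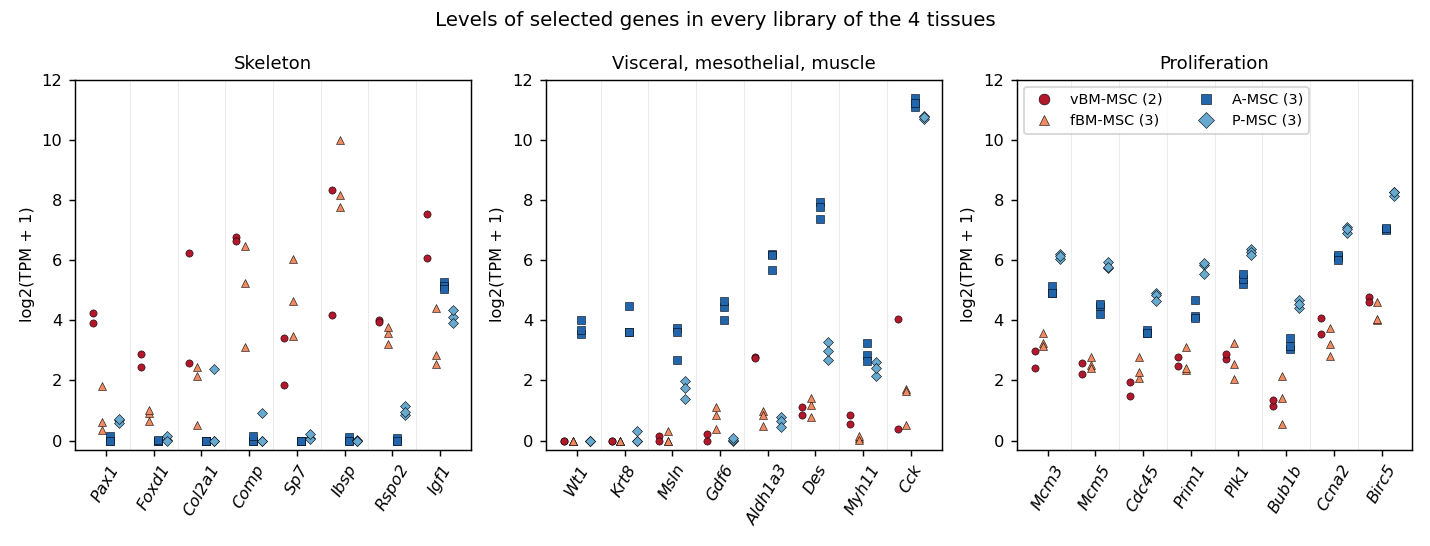
Levels of 24 named genes in all 11 libraries, on log2(TPM + 1), with 1 point per library and 1 symbol per tissue. Most skeletal genes stand in both marrow tissues, and Pax1, Foxd1 and Igf1 are highest in vBM-MSCs. The genes in the middle panel stand highest in A-MSCs, and the proliferation genes stand higher in A-MSCs and P-MSCs than in either marrow.

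Of the 12 leading genes of vBM-MSCs, 11 had a curated start site, and 7 of these had within 50 kb an open region of vBM-MSCs that the A-MSC list did not hold (Col2a1, Susd5, Sp7, Dmp1, Foxd1, Rspo2 and Edil3). Such a region lay near 28.1% of all genes tested with a start site and 40.5% of those higher in vBM-MSCs. Sp7 had 1 region of the opposite kind as well. For the 3 of these genes with the largest difference, the strongest region is shown by 75 bases on either side of its summit, as the plus strand of mm10, to let the reader see the DNA that is open in vertebral and not in adipose cells. Capitals mark letters that match a searched motif (CATTCC for TEAD and TAATTA for homeodomain factors, on either strand, in the sequences that follow). The Col2a1 region, chr15:98029059-98029209, is intergenic and its summit lies 24410 bases upstream of the start of Col2a1, with a fold enrichment of 9.57. The Sp7 region, chr15:102362849-102362999, lies in an intron of Sp7, 3409 bases downstream of its start, with a fold enrichment of 10.3. The Susd5 region, chr9:114025276-114025426, lies in an intron of Fbxl2, 32003 bases upstream of the start of Susd5, with a fold enrichment of 6.25. All 3 were also in the fBM-MSC list, and the Susd5 region was in the P-MSC list too.
Col2a1 region: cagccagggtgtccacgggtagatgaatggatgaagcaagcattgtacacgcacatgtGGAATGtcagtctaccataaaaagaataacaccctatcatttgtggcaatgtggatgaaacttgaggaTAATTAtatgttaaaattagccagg
Sp7 region: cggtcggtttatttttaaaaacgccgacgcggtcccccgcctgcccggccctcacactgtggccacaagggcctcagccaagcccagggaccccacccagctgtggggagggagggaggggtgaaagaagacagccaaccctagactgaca
Susd5 region: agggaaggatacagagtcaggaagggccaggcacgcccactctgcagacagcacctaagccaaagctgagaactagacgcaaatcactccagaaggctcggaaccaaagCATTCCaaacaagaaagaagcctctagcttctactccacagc
The Col2a1 window held 1 TEAD and 1 homeodomain match, the Susd5 window held 1 TEAD match, and none of the searched letters were in the Sp7 window. Susd5, a sushi-domain membrane protein, stood at 0.34 and 10.5 TPM in vBM-MSCs and at 0 in A-MSCs (at least 534-fold higher, adjusted p = 0.00347). Replicate 2 set this bound, which was 30.3-fold without it. At the promoter itself, within 1 kb of a start site, Col2a1, Dmp1, Col10a1 and Col11a1 had a region in vBM-MSCs and none in A-MSCs, with fold enrichments of 5.89, 5.52, 5.52 and 11.8. None of these was particular to vBM-MSCs. Dmp1, Col10a1 and Col11a1 had a promoter region in fBM-MSCs too (6.99, 6.99 and 5.89), as did Col2a1, Col10a1 and Col11a1 in P-MSCs (5.89, 7.36 and 12.9). Comp had a promoter region in both lists, of 10.3 in vBM-MSCs and 14 in A-MSCs.

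Secreted regulators of the Wnt pathway were among the largest differences. Rspo2, a ligand that raises Wnt signalling through Lgr receptors, stood at 15.2 and 14.5 TPM in vBM-MSCs and at 0, 0.06 and 0 TPM in A-MSCs (log2 difference 9.24 ± 0.57, adjusted p = 3.32e-06). Wif1, which binds and inhibits Wnt ligands, stood at 10.1 and 24.5 TPM against 0 in every A-MSC library, at least 886-fold higher (adjusted p = 0.0013), or 496-fold without vBM-MSC replicate 2. Sfrp4, a decoy receptor, stood at 3.84 and 28.6 TPM against 0, 0.17 and 0 TPM, and Dkk3, a member of the Dickkopf family, at 82.7 and 117 TPM against 5.03 to 6.19 TPM. An agonist and several inhibitors were thus higher in the same cells. Of 21 Wnt genes tested, 6 were higher in vBM-MSCs and 1 in A-MSCs, with a list median of 1.33. The 1 gene higher in A-MSCs was Frzb (named after its value was seen), another decoy receptor, at 4.53, 3.45 and 6.74 TPM against 2.01 and 2.40 TPM, and the count of Wnt genes higher in A-MSCs was 0 without either vBM-MSC library. Wnt2, a ligand, stood at 29.1 and 30.7 TPM against 5.82 to 7.72 TPM and did not pass the test (adjusted p = 0.167).

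In the BMP and TGF-beta pathway the calls went both ways. Of 35 genes tested, 10 were higher in vBM-MSCs (13.2% over all genes) and 4 in A-MSCs (12.4%), with a list median of 0.42. The ligand Gdf6 was the largest difference and lay on the adipose side, at 15.2, 20.6 and 24.2 TPM in A-MSCs and 0 and 0.16 TPM in vBM-MSCs (log2 difference -7.98 ± 0.85, adjusted p = 9.2e-05). The ligand Bmp2 lay on the marrow side, at 1.02 and 7.68 TPM against 0.32 to 0.38 TPM (adjusted p = 0.00639), but lost the call without vBM-MSC replicate 2. The target gene Id1 stood at 252 and 239.6 TPM in vBM-MSCs against 116 to 162 TPM. The coreceptor Tgfbr3 was higher in A-MSCs, at 5.35 to 5.94 TPM against 1.85 and 1.92 TPM (adjusted p = 0.000171). The secreted follistatin relative Fstl1 was abundant in both tissues and higher in vBM-MSCs, at 385 and 423 TPM against 258 to 279 TPM (log2 difference 0.47 ± 0.10, adjusted p = 0.0059). Inhbb, an activin subunit, was higher in A-MSCs, at 13.01 to 14.95 TPM against 2.03 and 6.30 TPM, a call lost without vBM-MSC replicate 1 or any A-MSC library. Without vBM-MSC replicate 2, 4 genes of the list were higher in vBM-MSCs and 5 in A-MSCs.

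Of 12 genes of the insulin-like growth factor system tested, 6 were higher in vBM-MSCs and 0 in A-MSCs (5 and 2 without vBM-MSC replicate 2). Igf1 stood at 185 and 66.98 TPM in vBM-MSCs and at 38.1, 34.6 and 31.6 TPM in A-MSCs (log2 difference 1.99 ± 0.56, adjusted p = 0.0229). Its call was lost without vBM-MSC replicate 1, when the log2 difference was 0.97, and when any A-MSC library was left out. Igfbp4, which binds and holds IGF, stood at 602 and 332 TPM against 61.0, 91.4 and 149.7 TPM (log2 difference 2.12 ± 0.40, adjusted p = 0.00291). Igfbp7, a secreted binding protein of vessels, stood at 953 and 1942 TPM against 508 to 630 TPM (adjusted p = 0.00128), with exons that overlap Polr2b. Igfbp2 (added after its values were seen) stood at 3914 and 2091 TPM against 367 to 495 TPM, and missed the threshold (adjusted p = 0.055).

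Many matrix genes besides those of bone and cartilage were higher in vBM-MSCs. Col8a1, a short-chain network collagen, stood at 337 and 327 TPM in vBM-MSCs and at 32.8, 29.2 and 34.3 TPM in A-MSCs. Its log2 difference was 3.26 ± 0.16 (adjusted p = 1.01e-06). Its partner chain Col8a2 stood at 22.4 and 17.6 TPM against 0.38 to 0.82 TPM (log2 difference 5.14 ± 0.75, adjusted p = 0.000677). Of the chains of beaded-filament collagen VI, those encoded by Col6a1 and Col6a2 were higher in vBM-MSCs: Col6a1 stood at 79.6 and 102 TPM against 5.18 to 8.14 TPM, and Col6a2 at 53.0 and 73.4 TPM against 2.14 to 2.94 TPM. Col6a3 (added after its values were seen) overlapped, at 3.43 and 7.45 TPM against 2 to 3.78 TPM (adjusted p = 0.342). In all, 11 of 23 collagens were higher in vBM-MSCs and 0 in A-MSCs, with a list median of 1.15 (7 higher without vBM-MSC replicate 2). Of 23 proteoglycans and elastic fibre genes, 11 were higher in vBM-MSCs and 0 in A-MSCs. Fmod (fibromodulin), a small leucine-rich proteoglycan of tendon and cartilage, stood at 143 and 196 TPM against 4.75 to 9.40 TPM (log2 difference 4.60 ± 0.71, adjusted p = 0.000983). Its relatives Omd, Ogn and Aspn stood at 6.47 and 48.3, 19.2 and 89.8, and 8.92 and 30.3 TPM in vBM-MSCs, and at no more than 3.37 TPM in any A-MSC library. The call of Aspn was lost without vBM-MSC replicate 2 or A-MSC replicate 3. Bgn (biglycan) was abundant in both tissues, at 1754 and 2022 TPM against 902 to 991 TPM (log2 difference 0.89 ± 0.14, adjusted p = 0.000972). Dcn (decorin) overlapped between the tissues, at 25.8 and 90.4 TPM against 18.9 to 44.1 TPM, and did not pass (adjusted p = 0.2), although it did without vBM-MSC replicate 1.

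Of 20 metalloproteinases and inhibitors tested, 9 were higher in vBM-MSCs and 1 in A-MSCs (5 and 2 without vBM-MSC replicate 2). Mmp13, the collagenase of bone and cartilage, stood at 46.5 and 336 TPM in vBM-MSCs and at 1.08, 1.08 and 1.05 TPM in A-MSCs (log2 difference 7.30 ± 0.79, adjusted p = 0.000101). Mmp16, a membrane-type enzyme, stood at 14 and 24.6 TPM against 0.45 to 0.69 TPM (adjusted p = 1.78e-06). Both had a promoter region in vBM-MSCs and none in A-MSCs, with fold enrichments of 7.36 and 9.57. That of Mmp13 was also in fBM-MSCs (9.56), and that of Mmp16 in fBM-MSCs (6.99) and P-MSCs (10.3). Mmp3 overlapped between the tissues, at 1.87 and 68.3 TPM against 0.26 to 4.44 TPM, and without vBM-MSC replicate 2 its log2 difference changed from 3.88 to -0.16. Mmp2 (gelatinase A) was even in the A-MSC libraries, at 75.9 to 80.04 TPM, and stood at 129.7 and 292 TPM in vBM-MSCs, a call lost without vBM-MSC replicate 2 or A-MSC replicate 2. The inhibitor Timp2 was higher in vBM-MSCs, at 546 and 968 TPM against 217 to 293 TPM (adjusted p = 0.000444). The inhibitor Timp1 was higher in A-MSCs, at 6822, 6386 and 7989 TPM against 3495 and 4983 TPM, close to the threshold (adjusted p = 0.0483), and its call was lost when any of the 5 libraries was left out.

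Genes by which marrow stroma supports blood stem cells were called in 1 direction only. Of 17 tested, 5 were higher in vBM-MSCs (13.2% over all genes) and 0 in A-MSCs (12.4%). Cxcl12, the chemokine that retains blood stem cells in marrow, stood at 373 and 351 TPM in vBM-MSCs and at 247, 286 and 197 TPM in A-MSCs, a log2 difference of 0.43 ± 0.24 (adjusted p = 0.214). Kitl (stem cell factor) stood at 7.48 and 6.55 TPM against 7.87 to 10.54 TPM (adjusted p = 0.405). Spp1 (osteopontin), a secreted matrix protein on both the niche and the bone lists, stood at 1562 and 9037 TPM against 384, 353 and 352 TPM (log2 difference 3.68 ± 0.59, adjusted p = 0.00123). The other genes higher in vBM-MSCs were Igf1, the BMP antagonist Grem1, which lost its call without vBM-MSC replicate 2 or any A-MSC library, Foxc1, and Ebf3 (named after its value was seen), at 0.11 and 0.85 TPM against at most 0.02 TPM.

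Among immunoregulatory mediators, Il1rn, the receptor antagonist that blocks interleukin-1, stood at 14.5 and 32.6 TPM in vBM-MSCs and at 0.06, 0.12 and 0.10 TPM in A-MSCs (log2 difference 7.77 ± 0.74, adjusted p = 0.000127). Its promoter had a region in A-MSCs (fold enrichment 7.73), fBM-MSCs (6.25) and P-MSCs (6.99) but none in vBM-MSCs, and 3 regions of vBM-MSCs that the A-MSC list did not hold lay within 50 kb. Ptges, the terminal enzyme of prostaglandin E2 synthesis, stood at 52.6 and 41.2 TPM against 14.9 to 19.8 TPM (adjusted p = 0.0054), while Ptgs2, the enzyme that acts before it, stood at 489.6 and 372 TPM against 528 to 551 TPM (adjusted p = 0.187). Lif, a cytokine, stood at 17.1 and 22.1 TPM against 6.28 to 8.29 TPM. Tnfaip6, which curbs neutrophil migration, was at 7.45 and 8.31 TPM against 9.86 to 12.9 TPM (adjusted p = 0.417). The list had 5 genes higher in vBM-MSCs and 1 in A-MSCs (Lgals1, galectin-1, lost without vBM-MSC replicate 2 or A-MSC replicate 1) of 15 tested.

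Complement genes split between the tissues. C3, the central component (named after its value was seen), stood at 3.26, 2.58 and 4.91 TPM in A-MSCs and at 0.01 and 0.19 TPM in vBM-MSCs (log2 difference -5.28 ± 1.25, adjusted p = 0.0104). The acute-phase gene Saa3 stood at 12.2, 13.5 and 38.5 TPM in A-MSCs and at 0 and 0.67 TPM in vBM-MSCs. Of 10 genes of complement and the acute phase tested, 3 were higher in vBM-MSCs and 2 in A-MSCs. Of 11 chemokines tested, 2 were higher in vBM-MSCs (Ccl9 and Cx3cl1) and 1 in A-MSCs (Cxcl16), and of 15 interferon-stimulated genes 1 was higher in each tissue (Tap1 in vBM-MSCs, Ifit2 in A-MSCs). Of these, Ccl9 lost its call without vBM-MSC replicate 2 or A-MSC replicate 3, and Ifit2 without vBM-MSC replicate 1 or A-MSC replicate 1 or 2.

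On the adipose side, the mesothelial and keratin genes stood out. Wt1 lies at chr2:105126529-105173614 on the plus strand. It stood at 10.6, 14.9 and 11.7 TPM in A-MSCs and at 0 in both vBM-MSC libraries, at least 545-fold higher in A-MSCs against a floor of 3 counts over the vBM-MSC libraries (adjusted p = 8.59e-05). It was listed at 0 in every fBM-MSC and P-MSC library as well. Krt8, a keratin of simple epithelia and mesothelium, stood at 11.1, 21.02 and 11.2 TPM against 0 and 0 TPM, at least 348-fold higher (adjusted p = 0.00159). Msln (mesothelin) stood at 12.2, 5.37 and 11.1 TPM against 0.10 and 0 TPM, and Upk3b, a uroplakin of mesothelium, at 13.98, 7.76 and 12.6 TPM against 0 and 0.18 TPM. Of 14 genes tested, 11 were higher in A-MSCs and 0 in vBM-MSCs, and the list median was -5.70. The 19 genes of the list with values summed to between 166.87 and 216.16 TPM in A-MSCs and to 33.53 and 35.16 TPM in vBM-MSCs. Krt19 (added after its values were seen) did not pass, at 18.9, 18.5 and 17.1 TPM against 12.2 and 8.72 TPM (adjusted p = 0.206). The 8 epithelial markers summed to 0.70 and 0.94 TPM in vBM-MSCs and to between 4.76 and 12.4 TPM in A-MSCs. The 1 of them tested, Krt14 (a keratin of basal epithelium, added after its values were seen), was higher in A-MSCs, at 4.35, 2.96 and 5.40 TPM against 0 and 0.32 TPM (adjusted p = 0.0219), and Cdh1 and Epcam were at no more than 0.41 TPM in any of the 5 libraries. The part of these cells in the keratin result was not tested.

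Among visceral mesoderm factors, several were also higher in A-MSCs. Of 17 GATA, RUNX and visceral mesoderm factors tested, 7 were higher in A-MSCs and 3 in vBM-MSCs, with a list median of -0.61. Gata2 stood at 14.8, 20.6 and 21.6 TPM in A-MSCs and at 6.74 and 13.9 TPM in vBM-MSCs (log2 difference -1.02 ± 0.32, adjusted p = 0.0366), a call that was lost without vBM-MSC replicate 1, when the log2 difference was -0.66, and without A-MSC replicate 2 or 3 or any P-MSC library. Runx1, known best as a factor of blood cells, stood at 6.62, 7.91 and 9.22 TPM against 4.41 and 5.86 TPM (log2 difference -0.75 ± 0.18, adjusted p = 0.0109), which was lost without vBM-MSC replicate 1. Gata6, which like Gata3, Gata4 and Tcf21 was added after its values were seen, stood at 3.94, 4.51 and 4.78 TPM in A-MSCs against 0.13 and 0.23 TPM (log2 difference -4.69 ± 1.01, adjusted p = 0.00613). Gata4 stood at 0.16, 1.43 and 0.67 TPM against 0 and 0.05 TPM, and Gata3 at 4.13 to 4.39 TPM against 0.94 and 1.65 TPM. Tcf21, a factor of visceral and fat stroma, stood at 4.2, 4.85 and 3.82 TPM against 0 in both vBM-MSC libraries (adjusted p = 0.00359). Foxf1 and Osr1, which are also mesoderm factors, went the other way, Foxf1 at 12.7 and 6.24 TPM in vBM-MSCs against 1.46 to 2.74 TPM (adjusted p = 0.0092) and Osr1 at 16.2 and 14.8 TPM against 4.95 to 6.88 TPM (adjusted p = 0.0315). The call of Osr1 was lost when any library of these tissues was left out, and that of Foxf1 without vBM-MSC replicate 1. The third was Runx3 (named after its value was seen), at 0.04 and 1.48 TPM against at most 0.03 TPM. Without vBM-MSC replicate 1 the list had 4 genes higher in A-MSCs and 1 in vBM-MSCs, and without replicate 2 it had 7 and 1.

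Of the 12 leading genes of A-MSCs, 11 had within 50 kb a region that the vBM-MSC list did not hold, as did 51.5% of all genes tested with a start site, 58.4% of those higher in A-MSCs and 47.8% of those higher in vBM-MSCs. Asic3 and Emcn each had 1 region of the opposite kind as well. For the 3 with the largest difference, Wt1, Krt8 and Hsd3b1, the strongest is shown in the same way, so that the DNA open in adipose cells can be set beside that of the vertebral cells above. Capitals mark TGAGTCA or TGACTCA for AP-1, AGATAA or TGATAA for GATA and CATTCC for TEAD, on either strand. The Wt1 region, chr2:105162884-105163034, lies in an intron of Wt1, 36430 bases downstream of its start, with a fold enrichment of 31.3, and 11 such regions lay within 50 kb of Wt1. The Krt8 region, chr15:102016206-102016356, is intergenic and lies 11939 bases upstream of Krt8, with a fold enrichment of 11.04. The Hsd3b1 region, chr3:98857076-98857226, lies in an intron of Hsd3b1, 2643 bases downstream of its start, with a fold enrichment of 9.56. All 3 were also in the fBM-MSC and P-MSC lists, so an open region was not particular to A-MSCs.
Wt1 region: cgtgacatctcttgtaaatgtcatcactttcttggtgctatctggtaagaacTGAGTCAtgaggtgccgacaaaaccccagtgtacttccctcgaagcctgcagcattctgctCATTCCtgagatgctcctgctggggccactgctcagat
Krt8 region: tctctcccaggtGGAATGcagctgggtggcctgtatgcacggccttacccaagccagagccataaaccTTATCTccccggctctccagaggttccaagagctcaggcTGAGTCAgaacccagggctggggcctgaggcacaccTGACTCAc
Hsd3b1 region: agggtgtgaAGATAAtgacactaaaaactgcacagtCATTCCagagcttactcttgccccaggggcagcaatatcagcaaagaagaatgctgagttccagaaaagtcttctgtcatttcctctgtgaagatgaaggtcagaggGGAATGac
The Wt1 window held 1 AP-1 and 1 TEAD match, the Krt8 window 1 GATA, 2 AP-1 and 1 TEAD match, and the Hsd3b1 window 1 GATA and 2 TEAD matches. The Wt1 promoter itself had a region of fold enrichment 25 in A-MSCs and none in vBM-MSCs. Hsd3b1, a steroid dehydrogenase, stood at 7.64, 8.21 and 2.66 TPM in A-MSCs and at 0 in vBM-MSCs (at least 138-fold higher, adjusted p = 0.000741).

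Other leading genes of A-MSCs had varied roles. Cck, the precursor of the hormone cholecystokinin, reached 2197, 2694 and 2417 TPM in A-MSCs against 15.6 and 0.30 TPM in vBM-MSCs (log2 difference -8.34 ± 0.98, adjusted p = 0.000165). Its level was 1720.1 ± 58.4 TPM in P-MSCs and 1.62 ± 1.02 TPM in fBM-MSCs (SD, n = 3), and its promoter had a region in A-MSCs and P-MSCs but not in vBM-MSCs. Asic3, an acid-sensing ion channel, stood at 54.7, 57.4 and 73.4 TPM against 0.32 and 0 TPM (adjusted p = 0.000683), and in P-MSCs it was at 0.117 ± 0.102 TPM. Rbm47, an RNA-binding protein, stood at 6.54, 5.76 and 8.09 TPM against 0 and 0.05 TPM (log2 difference -8.26 ± 1.16, adjusted p = 0.000547). Olr1, a receptor for oxidized lipoprotein, stood at 4.51, 7.99 and 10.8 TPM against 0.13 and 0 TPM, with promoter regions of fold enrichment 34.2 in A-MSCs and 6.62 in vBM-MSCs.

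Smooth muscle genes were higher in A-MSCs wherever they passed the test, in 8 of 15 tested, with a list median of -1.01. Des (desmin), the intermediate filament of muscle, stood at 163, 245 and 216 TPM in A-MSCs and at 0.80 and 1.18 TPM in vBM-MSCs (log2 difference -7.83 ± 0.41, adjusted p = 1.11e-06), with exons that overlap Gm15179. Myh11, the smooth muscle myosin heavy chain, stood at 6.24, 8.38 and 5.28 TPM against 0.45 and 0.79 TPM (adjusted p = 0.000484). Cnn1 (calponin) stood at 579, 761 and 717 TPM against 254 and 112 TPM (adjusted p = 0.00817), a call lost without vBM-MSC replicate 2. Acta2, the alpha-actin shared with activated fibroblasts, was abundant in both, at 8429, 8452 and 8060.4 TPM against 5771 and 4257 TPM (log2 difference -0.83 ± 0.16, adjusted p = 0.00393). In fBM-MSCs Acta2 stood at 778 ± 65.5 TPM (SD, n = 3), so vBM-MSCs were also higher than fBM-MSCs, by 2.66 on the log2 scale (adjusted p = 7.57e-06). Acta1, the skeletal muscle actin, stood at 871, 1028 and 856 TPM in A-MSCs and at 495 and 54.5 TPM in vBM-MSCs (adjusted p = 0.0787, past the threshold without vBM-MSC replicate 1), while Myh4, Ckm, Mb and Myog were at 0 in all 5 libraries.

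Of 15 retinoid and monoamine genes tested, 4 were higher in vBM-MSCs, 3 in A-MSCs and 8 were not called. The retinoic acid synthesizing enzymes Aldh1a2 and Aldh1a3 were higher in A-MSCs: Aldh1a2 stood at 23.6, 21.4 and 23.4 TPM against 0.73 and 1.01 TPM (log2 difference -4.83 ± 0.29, adjusted p = 2.64e-06), and Aldh1a3 at 73.5, 49.6 and 70.6 TPM against 5.87 and 5.71 TPM (log2 difference -3.59 ± 0.33, adjusted p = 3.68e-05). Cyp26b1, which breaks retinoic acid down, was higher in vBM-MSCs, at 11.6 and 4.80 TPM against 0.15 to 0.37 TPM (log2 difference 5.01 ± 0.77, adjusted p = 0.000941). Crabp2, which carries retinoic acid to the nucleus, stood at 31.5 and 20.8 TPM against 0.17 to 1.23 TPM, and the receptor Rarg at 19.6 and 22.9 TPM against 8.17 to 10.1 TPM. Aldh1a1, the remaining synthesizing enzyme, did not pass (adjusted p = 0.675). Of the monoamine oxidases, Maoa was higher in vBM-MSCs, at 121 and 80.5 TPM against 32.9 to 35.2 TPM, and Maob was higher in A-MSCs, at 12.4 to 15.4 TPM against 2.85 and 3.62 TPM.

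Proliferation genes were higher in A-MSCs almost throughout. Of 32 DNA replication genes tested, 27 were higher in A-MSCs and 0 in vBM-MSCs, with a list median of -1.51, and of 24 mitosis genes 21 were higher in A-MSCs and 0 in vBM-MSCs, with a median of -2.17. Mcm3, a subunit of the replicative helicase, stood at 29.3, 34.5 and 28.8 TPM in A-MSCs and at 4.28 and 6.92 TPM in vBM-MSCs (log2 difference -2.59 ± 0.19, adjusted p = 6.54e-06). Its partner Mcm5 stood at 17.5, 21.3 and 22.1 TPM against 4.98 and 3.68 TPM. Prim1, the primase, stood at 16.6, 24.8 and 15.9 TPM against 4.52 and 5.80 TPM.

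Plk1, a kinase of mitotic entry, stood at 36.1, 40.1 and 45.8 TPM in A-MSCs and at 5.59 and 6.36 TPM in vBM-MSCs (log2 difference -2.89 ± 0.31, adjusted p = 8.59e-05). Birc5 (survivin), of the chromosomal passenger complex, stood at 130.2, 129 and 134 TPM against 26.6 and 23.4 TPM (log2 difference -2.51 ± 0.18, adjusted p = 6.43e-06). The mitotic cyclin Ccnb1 stood at 111, 104 and 87.9 TPM against 19.1 and 23.3 TPM. In P-MSCs these genes were higher again than in A-MSCs by value, with 76.1 ± 4.78 TPM of Plk1 and 68.7 ± 3.88 TPM of Mcm3, and fBM-MSCs held 5.49 ± 2.73 and 9.12 ± 1.68 TPM (SD, n = 3). Against fBM-MSCs, Plk1 in vBM-MSCs did not pass the test and Mcm3 was lower (log2 difference -0.75, adjusted p = 0.0181). The number of called genes in these lists was 26 to 28 for replication and 20 to 21 for mitosis when either vBM-MSC library was left out. All 10 of the named genes of these lists had a promoter region in both the vBM-MSC and the A-MSC list. Its fold enrichment was higher in the A-MSC list for 5 of them (Mcm2, Mcm5, Prim1, Birc5 and Ccnb1), higher in the vBM-MSC list for 4 (Mcm3, Cdc45, Bub1b and Ccna2) and 16.2 in both for Plk1. The values in vBM-MSCs and A-MSCs in turn were 18.8 and 29.8 for Mcm5 and 42.3 and 30.2 for Mcm3.

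**Figure D3:**
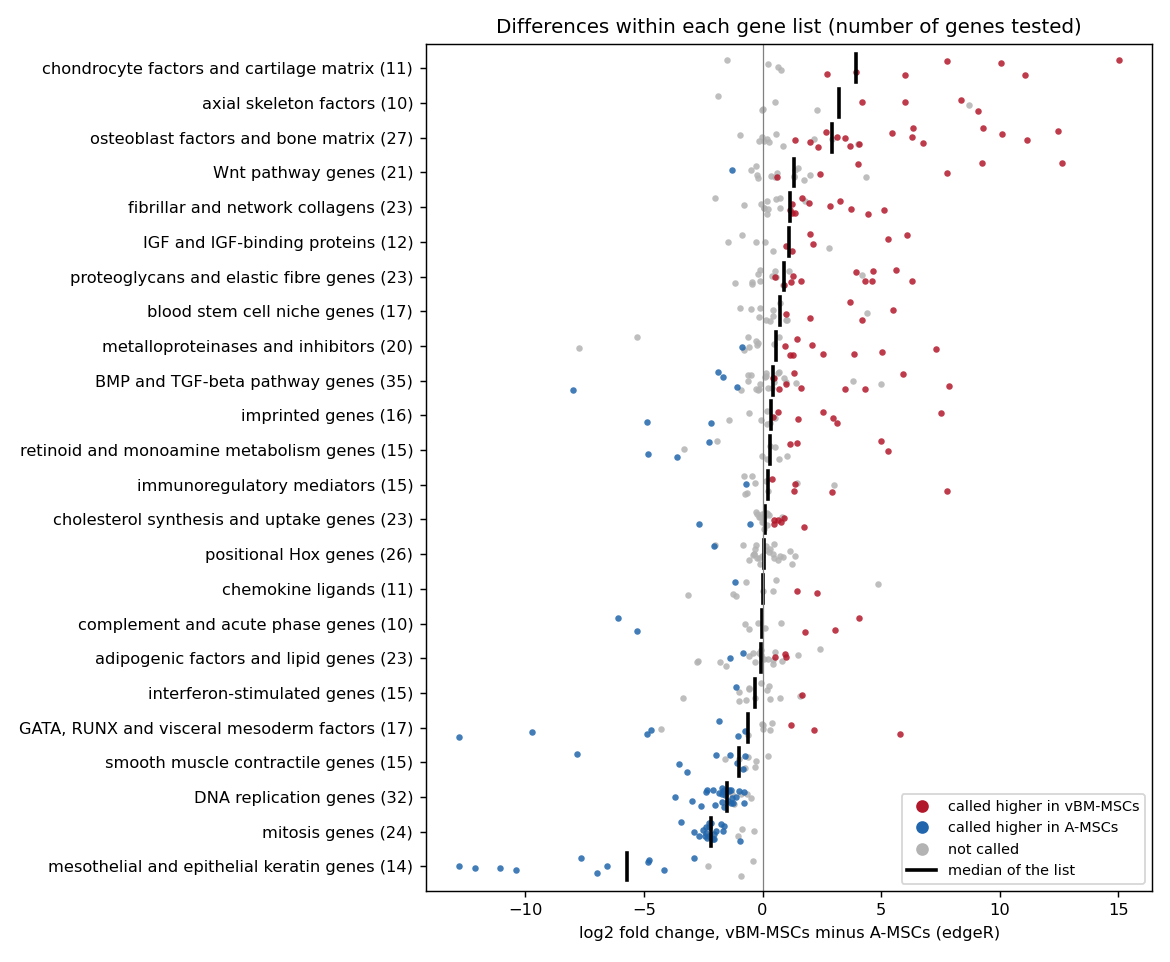
Log2 differences of every tested gene in 24 lists, ordered by list median, with positive values for genes higher in vBM-MSCs. Colours mark the genes called in each direction, grey points did not pass the test, and black bars are the list medians, from 3.94 for cartilage genes to -5.70 for mesothelial and keratin genes.

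Genes of fat cell formation were called in both directions, at shares near those of all genes. Of 23 adipogenic and lipid genes tested, 3 were higher in vBM-MSCs (13.2% over all genes) and 2 in A-MSCs (12.4%), with a list median of -0.04. The 30 genes of the list summed to 979 and 1109 TPM in vBM-MSCs and to between 742 and 940 TPM in A-MSCs. Pparg, the master factor of fat cells, stood at 5.13 and 10.3 TPM in vBM-MSCs and at 5.94, 3.72 and 5.69 TPM in A-MSCs (log2 difference 0.46 ± 0.42, adjusted p = 0.463). Cebpa, its partner, stood at 1.90 and 4.13 TPM against 0.74 to 1.31 TPM (adjusted p = 0.0772). Plin2, a lipid droplet coat protein, was higher in vBM-MSCs, at 217 and 278 TPM against 154 to 159 TPM, and so was Klf4, at 10.8 and 8.99 TPM against 3.98 to 5.48 TPM, except without vBM-MSC replicate 1. The lipase Pnpla2 was higher in A-MSCs, at 15.7 to 20.8 TPM against 10.8 and 11.2 TPM. Of 23 cholesterol genes tested, 6 were higher in vBM-MSCs and 2 in A-MSCs. The sterol reductase Tm7sf2 differed most of the 6, at 16.6 and 15.2 TPM against 3.35 to 5.74 TPM (log2 difference 1.75 ± 0.31, adjusted p = 0.00199), with exons that overlap Vps51. The feedback regulator Insig1 was higher in A-MSCs, at 57.6 to 68.8 TPM against 50.7 and 44.9 TPM, but not without vBM-MSC replicate 2, A-MSC replicate 1 or A-MSC replicate 3.

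Of 16 imprinted genes tested, which are expressed from 1 parental allele, 7 were higher in vBM-MSCs and 2 in A-MSCs (3 and 2 without vBM-MSC replicate 2). Dio3, the deiodinase that inactivates thyroid hormone, stood at 25.7 and 11.6 TPM in vBM-MSCs and at 0.23, 0 and 0.07 TPM in A-MSCs (log2 difference 7.51 ± 0.98, adjusted p = 0.0017). It was listed at 0 in every fBM-MSC and P-MSC library, and its promoter had a region in vBM-MSCs and none in A-MSCs. Dlk1, at the other end of the same imprinted domain, stood at 1.88 and 4.44 TPM against 0.03 to 0.64 TPM (adjusted p = 0.0139, lost without vBM-MSC replicate 2), and Meg3, between them, at 2.36 and 3.75 TPM against 1.54 to 2.22 TPM (adjusted p = 0.486). Slc22a18, a transporter, stood at 24.02 and 16.8 TPM against 1.39 to 3.42 TPM (adjusted p = 0.00106). Nnat (neuronatin) was higher in A-MSCs, at 11.4, 17.1 and 15.8 TPM against 0.31 and 0.80 TPM (log2 difference -4.86 ± 0.55, adjusted p = 0.000133). The remaining leading genes of vBM-MSCs were Mme, the surface peptidase neprilysin (CD10), at 2.90 and 9.81 TPM against at most 0.01 TPM, Edil3, an integrin-binding matrix protein, at 13.4 and 17.2 TPM against 0, 0.11 and 0 TPM, and Gm15698, a predicted gene with no curated transcript here, at 384 and 169.9 TPM against 0.24, 0.68 and 0 TPM.

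Open chromatin was compared over 50763 regions of vBM-MSCs and 59873 of A-MSCs that had a summit at a −log10 q of at least 7. The depth behind the lists is unknown and each tissue has 1 pooled list, so no test was made and the intervals cover counting error only. Of the vBM-MSC regions, 76.1% overlapped an A-MSC region (exact 95% interval 75.8% to 76.5%), and of the A-MSC regions 64.2% overlapped a vBM-MSC region (63.8% to 64.5%). Shared regions were stronger, with a median fold enrichment of 10.3 in vBM-MSCs against 6.62 for those not shared. A stricter set, with no deposited region of the other tissue at any q, held 6532 vBM-MSC regions and 11536 A-MSC regions. Of the vBM-MSC set 59.1% were also in the fBM-MSC list and 22.8% in the P-MSC list, and of the A-MSC set 47.0% and 64.1%.

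Promoter regions found in only 1 of the vBM-MSC and A-MSC lists, whatever the other tissues held, were more frequent among genes higher in that tissue. Of the genes higher in vBM-MSCs with a curated start site, 97 of 1532 (6.33%, 5.16% to 7.67%) had a promoter region in the vBM-MSC list alone of the pair, against 14 of 1420 genes higher in A-MSCs (0.99%, 0.54% to 1.65%) and 1.56% of genes not called. A promoter region in the A-MSC list alone was found for 66 of 1420 genes higher in A-MSCs (4.65%, 3.61% to 5.88%), for 1.76% of genes higher in vBM-MSCs and for 2.61% of genes not called. With all deposited peaks the 6.33% and 4.65% became 3.79% and 2.61%, and at a −log10 q of at least 20 they became 7.77% and 8.80%. Most promoters were open in both tissues, with 82.2% of genes higher in vBM-MSCs and 87.8% of genes higher in A-MSCs. Within 50 kb of a start site, genes higher in vBM-MSCs had a mean of 0.567 regions of the strict vBM-MSC set, against 0.282 for genes higher in A-MSCs and 0.334 for genes not called. The strict A-MSC set gave means of 0.713, 1.01 and 0.805 for these groups.

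The motif content of regions not shared differed between the tissues most for GATA and AP-1. Within 100 bases of the summit, AGATAA or TGATAA on either strand was found in 24.1% of A-MSC regions not shared (23.5% to 24.7%) and in 11.4% of those of vBM-MSCs (10.9% to 11.99%), against 15.6% and 10.4% of all regions of these tissues. The AP-1 letters, TGACTCA or TGAGTCA, were found in 30.3% and 16.9%, against 26.8% and 22.7% of all regions. The RUNX letters TGTGGT were found in 21.01% of A-MSC and 22.4% of vBM-MSC regions not shared, against 18.97% and 18.8% of all regions. The TEAD letters CATTCC (23.4% and 21.8%), the E-box CATCTG (18.6% and 16.4%) and the homeodomain letters TAATTA (3.65% and 3.61%) were closer. Over all regions these were 21.3% and 20.5%, 16.2% and 15.1%, and 2.87% and 2.64%. In a window of 50 bases, the GATA shares of regions not shared were 13.43% in A-MSCs and 5.65% in vBM-MSCs. A match is a description of the letters, and whether a factor binds there was not tested.

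**Figure D4:**
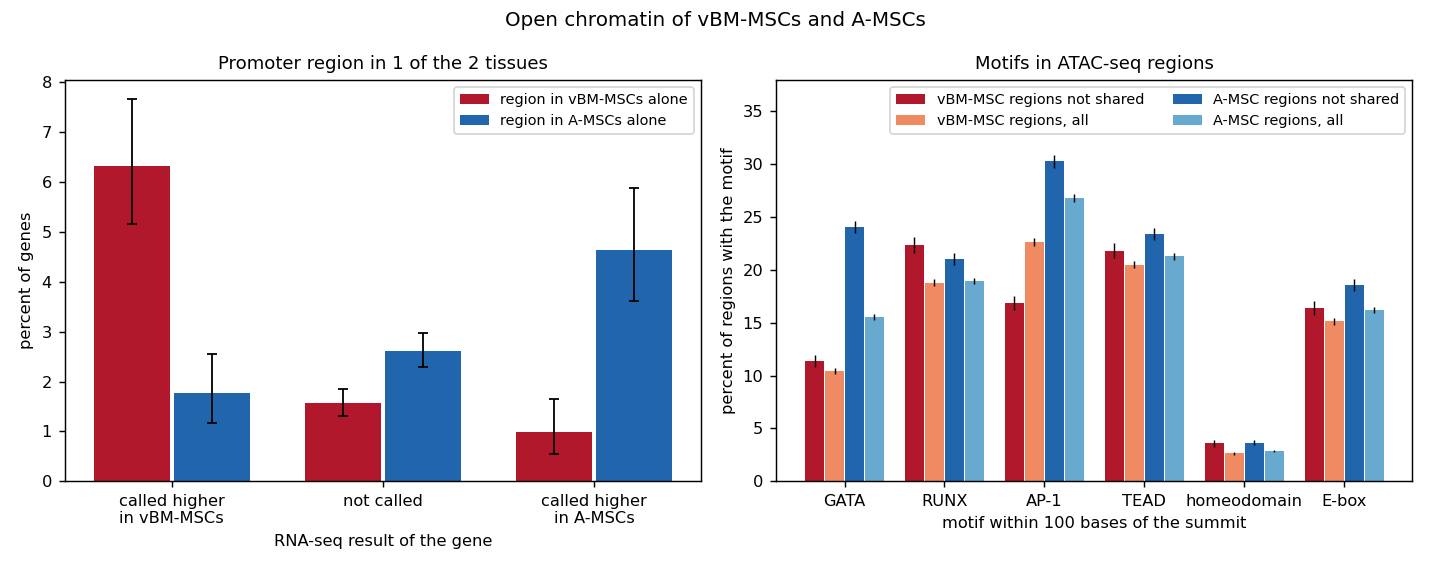
Left, the percentage of genes with a promoter region in the list of 1 of these tissues alone, by the RNA-seq result of the gene. Right, the percentage of regions with each motif, for regions not shared and for all regions of each tissue. Bars are shares and lines are exact 95% intervals for counting error. The genes higher in vBM-MSCs have the tallest bar for a region in vBM-MSCs alone (6.33%), and the GATA motif reaches 24.1% in A-MSC regions not shared.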

How the data were processed

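RNA of cultured MSCs was sequenced with Smart-seq2, a poly-A method that keeps no strand and no molecular identifiers. Per the labels and the study's methods, the authors aligned reads to mm10 with STAR and RSEM and deposited 1 table per library, with expected counts (estimated, not always whole) and TPM per gene. For ATAC-seq the authors aligned with Bowtie, shifted reads for the Tn5 cut, took out blacklisted regions and called peaks by MACS2 on pooled samples (6 per tissue by label, replicates and repeat runs). The deposited lists give a fold enrichment and a −log10 q per summit. Tool versions are not given in the sources used here.

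Expected counts were rounded and fitted in edgeR 4.0.16 (R 4.3.3) with TMM scaling and quasi-likelihood tests, the 11 libraries of 4 tissues in 1 model without covariates, and p-values adjusted by Benjamini-Hochberg over the 12509 genes that reached 1 CPM in 2 or more libraries. A gene was called at an adjusted p under 0.05. The SE of a log2 difference was derived from the test, as the size of the difference over the square root of its F value. Where 1 tissue held few counts, as A-MSCs did for Foxd1, Ibsp and Comp (1, 3 and 7), the size of a log2 difference is only roughly set. Library totals were 19569650 to 40517739 expected counts, and the median biological coefficient of variation was 19.8%. The fit was first tested on simulated counts with 200 changed genes. It recovered 42.5% of 2-fold and 80% of 4-fold changes, with 6.59% and 1.84% of its calls false. DESeq2 recovered 58.5% and 84.5%, with 22% and 19.5% of its calls false. Replicate numbers gave no clear sign of pairing: same-numbered libraries deviated together with r from -0.028 to 0.125 over 15 pairs. With so few libraries per tissue, this cannot exclude pairing by mouse.

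Named genes were the 12 with the largest difference in each direction (called, at least 5 TPM in the higher tissue, ranges apart), up to 4 such genes per direction in each of 34 lists, and the first 2 of each list. The comparison, members and lists were chosen with earlier results of these data known. Peaks with a −log10 q of at least 7 were merged into regions, shared at 1 base of overlap. Promoters were 1 kb either side of curated start sites on chromosomes 1 to 19 (11519 of the tested genes). Motifs were searched 100 bases either side of the strongest summit. Alternatives were RLE scaling, DESeq2 1.42.0, limma 3.58.1 on log2(TPM + 1), other filters, 5 libraries alone, a replicate block, each library left out, and other peak thresholds, overlaps and windows.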

Additional observations from a re-analysis of the deposited data

How the results depend on the processing

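Calls between vBM-MSCs and A-MSCs ranged from 1931 to 3665 over 19 settings, against 3201, and 55.3% to 99.3% of the 3201 remained called. Of 127 named genes called, 92 were called under every setting. With the replicate number as a block over the 5 libraries, 1931 genes were called, 974 higher in vBM-MSCs and 957 in A-MSCs. The block over 11 libraries gave 3021. Whether the same number means the same mouse is not stated, and the correlations between libraries cannot settle it. Limma on log2(TPM + 1) called 566 genes at 3-fold or more against 1036, with 61.4% of all its calls higher in vBM-MSCs against 51.5%. Its median difference over all genes was 0.11. Leaving out vBM-MSC replicate 2 gave 2274 calls and turned the sign of 8 genes, and leaving out replicate 1 gave 2671. For Mmp3 the log2 difference ran from -0.16 (without vBM-MSC replicate 2) to 5.19 (without A-MSC replicate 3), and the cause was not tested. With all deposited peaks, a −log10 q of at least 20, or the 50000 strongest regions, 73.37%, 80.48% and 71.05% of vBM-MSC regions were shared, and 65.24%, 61.04% and 70.25% of A-MSC regions. Promoter regions in vBM-MSCs alone at genes higher there were then 3.79%, 7.77% and 8.81%, and those in A-MSCs alone at genes higher there were 2.61% and 8.80% under the first and second of these. The GATA motif was in 23.34%, 22.17% and 25.41% of A-MSC regions not shared and, under the first and second, in 12.77% and 8.54% of those of vBM-MSCs. A window of 50 bases gave 13.43% and 5.65%. The 2 vBM-MSC libraries lie apart, which limits the calls of genes that vary between them. The ATAC-seq lists, 1 pooled list per tissue of unknown depth, allow no test between replicates.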

Other observations

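Among markers of other cell types, neuron and Schwann cell markers had 2 genes tested, both higher in A-MSCs, with 1 of the calls lost without either vBM-MSC library or A-MSC replicate 3. Tubb3, a tubulin used as a marker of neurons, stood at 124, 100.4 and 113 TPM in A-MSCs and at 56.3 and 70.9 TPM in vBM-MSCs (edgeR adjusted p = 0.00933), a call lost without vBM-MSC replicate 1. Mbp, the myelin basic protein (named after its value was seen), stood at 1.07, 1.90 and 2.24 TPM in A-MSCs and at 0.19 and 0.12 TPM in vBM-MSCs (edgeR adjusted p = 0.0178), a call lost without vBM-MSC replicate 2 or A-MSC replicate 3. Sox10, a factor of Schwann cells, was at 0 in all 5 libraries.

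Among the immunoregulatory genes already counted, Hmox1, the heme oxygenase, stood at 3747 and 4044 TPM in vBM-MSCs and at 2509, 2716 and 2953 TPM in A-MSCs (log2 difference 0.40 ± 0.13, edgeR adjusted p = 0.0385), a call lost without either vBM-MSC library or A-MSC replicate 1 or 2. Of the 3 complement and acute phase genes counted as higher in vBM-MSCs, against 2 in A-MSCs (C3 and Saa3), C1ra, a protease of the first complement component, stood at 10.8 and 13.4 TPM against 1.94, 2.21 and 5.52 TPM (adjusted p = 0.00888). Cp (ceruloplasmin), a ferroxidase, stood at 4.52 and 16.8 TPM against 1.90, 1.30 and 0.25 TPM (adjusted p = 0.0254), with exons that overlap Hps3, and lost its call without vBM-MSC replicate 2 or A-MSC replicate 2 or 3.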
